A study of Mus musculus with 18 samples.

Results

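Retained introns are introns that stay in a finished transcript while other copies from the same gene have them removed. For peritoneal macrophages of 3 TLR4 genotypes, the splicing tables listed, for each such intron, the FPKM of the form that keeps it (the on form) and of the form that splices it out (the off form). FPKM is a fragment count scaled for transcript length and library size. Members were the introns listed as single or multiple retained introns, with both forms paired within a gene and matched across the 18 libraries by gene and by start and end. Of 7038 introns listed, 3799 in 1916 genes had both forms in at least 1 library, among 101346 splicing events of all kinds. They were 3320 single introns and 479 events spanning several introns, each counted as 1 intron in what follows. A further 417 introns were listed with the on form only and 2822 with the off form only. The retention share used throughout is the on FPKM over the sum of on and off FPKM, in percent.

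Splicing normally removes introns before a transcript leaves the nucleus. A transcript that keeps one may be held in the nucleus, may be degraded by nonsense-mediated decay when the intron brings in a stop codon, or may be translated into another protein. In macrophages, intron removal is one of the steps that sets how fast genes induced through Toll-like receptors reach the cytoplasm. TLR4 is the receptor that senses LPS, the endotoxin of Gram-negative bacteria, and signals through MyD88 and TRIF to NF-κB and the interferon regulatory factors.

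Macrophages were elicited with thioglycolate from the peritoneal cavity of mice on a C57BL/6 background. TLR4-K730R and TLR4-K810R mice carried a lysine-to-arginine point mutation in the intracellular TIR domain of TLR4, made with CRISPR/Cas9, and TLR4-WT mice carried the unmutated receptor. Cells of each of the 3 genotypes were mock-treated or LPS-treated with 100 ng/mL for 6 h, which gave 6 groups of 3 libraries each. A point mutation leaves no mark in these tables, so the genotypes were taken from the labels alone. The sources do not say whether the libraries of a group came from separate mice, so p-values measure the spread between these libraries.

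The tables hold FPKM without read counts, so the depth behind a value is unknown and no counting interval can be given. A library held 80071 to 90401 rows. LPS-treated libraries listed fewer rows than mock-treated ones (84046 ± 2147 against 87758 ± 2046, SD, n = 9 each). The summed FPKM of 8 macrophage markers was 11658 to 14810 in mock-treated and 7295 to 10062 in LPS-treated libraries, with no row for Itgam. Of 6 neutrophil markers, all were listed, but only 1 had a mean of at least 1 FPKM in mock-treated libraries. Their sum was 22.9 to 46.7 before and 172 to 245 after LPS. Of 10 intestinal epithelium markers, 9 were listed, with no row for Phgr1. In the order TLR4-WT, TLR4-K730R, TLR4-K810R, their sum was 0.118 to 0.67, 44.1 to 70.8 and 54.6 to 116 in mock-treated libraries. After LPS it was 0.0928 to 14.8, 51.0 to 58.5 and 0.127 to 20.4. In the same order, the sum of 7 mesothelium and fibroblast markers was 31.3 to 48.2, 59.5 to 68.2 and 113 to 274 in mock-treated libraries, and 42.7 to 141 over all LPS-treated libraries. That of 5 lung epithelium markers was at most 3.94 except in LPS-treated TLR4-K810R, where it reached 34.7. The part of these other cells in the retention shares was not tested. In bulk RNA, fewer cells of a type and less RNA per cell cannot be told apart.

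The sequences of 7 introns show what retention puts into these transcripts, with coordinates on GRCm38 and the bases from GENCODE M21 transcripts that keep the intron. They were shown because Xbp1 carries an unusual short intron, Irf7 and Shisa5 were among the introns called below, Ifi35 and Clec4e represent strongly induced genes, and Tap1 and Tnfaip2 swung widely between libraries. Capitals mark the first stop codon in the reading frame of the upstream exon that lies wholly inside the intron. No such codon was found in Tap1 or Tnfaip2, and no frame was assigned for Xbp1.
Xbp1, chr11:5524278-5524303, plus strand: gcagcactcagactatgtgcacctct
Irf7 intron 5, chr7:141264560-141264724, minus strand: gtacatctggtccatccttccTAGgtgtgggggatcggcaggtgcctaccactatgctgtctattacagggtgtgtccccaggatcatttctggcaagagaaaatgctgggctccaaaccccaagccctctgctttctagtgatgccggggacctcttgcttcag
Shisa5 intron 4, chr9:109056094-109056286, plus strand: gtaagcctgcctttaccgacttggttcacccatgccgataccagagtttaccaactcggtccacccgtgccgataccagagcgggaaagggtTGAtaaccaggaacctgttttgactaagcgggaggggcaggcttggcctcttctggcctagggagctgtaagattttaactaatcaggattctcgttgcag
Ifi35 intron 3, chr11:101457338-101457415, plus strand: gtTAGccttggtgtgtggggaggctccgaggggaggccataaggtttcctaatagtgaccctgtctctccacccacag
Clec4e intron 3, chr6:123286360-123286431, minus strand: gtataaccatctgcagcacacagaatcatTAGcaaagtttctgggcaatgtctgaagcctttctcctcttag
Tap1 intron 6, chr17:34192858-34192941, plus strand: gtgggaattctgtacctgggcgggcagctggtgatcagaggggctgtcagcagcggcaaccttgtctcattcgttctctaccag
Tnfaip2 intron 5, chr12:111448370-111448487, plus strand: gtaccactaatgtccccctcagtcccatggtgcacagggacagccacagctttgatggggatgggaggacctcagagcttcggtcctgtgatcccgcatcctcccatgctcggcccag
Apart from Xbp1, each began with GT and ended with AG. The stop codon started at intron base 3 in Ifi35, 22 in Irf7, 30 in Clec4e and 93 in Shisa5. Keeping the 84 nt of Tap1 left the frame unchanged, whereas the 118 nt of Tnfaip2 shifted it.

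Of the 3799 paired introns, 1859 reached 1 FPKM of on plus off in all 18 libraries, and 1383 of those had a form that reached 1 FPKM in too few libraries. This left 476 introns of 382 genes for testing, 440 single and 36 multiple, with 8 introns that could not be given a single gene. Their length ran from 26 to 3381 nt with a median of 206.5. On plus off made up a median of 94.2% of the FPKM of the whole gene. On values were shared by 70 of the 476 introns, since 1 transcript can keep several introns and 1 intron can be listed against more than 1 spliced form, as for Irf7, Tnfaip2 and Clk1, and 437 distinct sets remained. These introns were therefore not independent of each other.

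Most tested introns were removed from most transcripts. The mean share over the 18 libraries was below 1% for 32 introns, 1 to 5% for 146, 5 to 20% for 176, 20 to 50% for 74, 50 to 80% for 19 and at least 80% for 29. The introns that were mostly kept differed in kind from the rest. Of the 48 with a share of at least 50%, 36 (75%) were kept by an annotated protein-coding transcript, against 3.37% of the introns below 5% and 12.8% of all 476. Their median length was 132 nt.

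**Figure D1:**
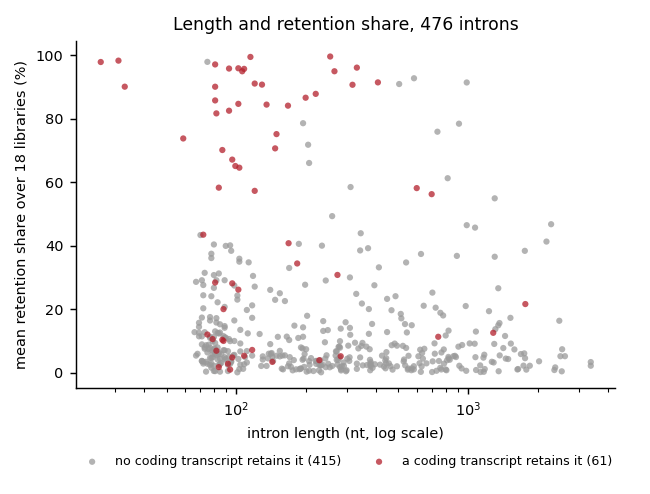
Mean retention share over 18 libraries (percent) against intron length (nt, log scale), 1 point per tested intron. Red points are the 61 introns that an annotated protein-coding transcript keeps. They hold most of the upper part, and the 4 introns of at most 60 nt had a median share of 93.9%.

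Where the reading frame could be followed, 137 introns kept it and 233 shifted it. A stop codon wholly inside the intron was met in frame in 295 of these, at a median position of 32 nt, and 32 kept the frame without one. The mostly kept introns were again unlike the others. Among those with a share of at least 50%, 15 had a frame, 12 of them kept it with no stop, and 1 held a stop codon. Of the introns with a share below 5%, 131 held one. Across introns, the share fell with length (Spearman's rho = -0.20, n = 476), rose with GC content (0.19, n = 410) and fell with on plus off FPKM (-0.52, n = 476). The filter on low values keeps out introns whose on form is low, and so those of low share at low on plus off FPKM, which builds part of the last relation in. These are descriptions over introns that share genes and libraries.

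Of 410 introns with sequence, 401 began with GT and ended with AG. The exceptions included Sms, which encodes spermine synthase and whose intron of 759 nt runs from AT to AC, the ends typical of the minor spliceosome. GC to AG ends were found in Rps27a, Tor1b, Sec16a and Man2c1. Listed gaps of 26 nt in Xbp1 and 31 nt in Rcc2 lack these splice-site ends. The Xbp1 gap is the stretch that IRE1 cuts out in the unfolded protein response. Its off form had no row, and was set to 0, in all 9 mock-treated libraries and in the 3 LPS-treated TLR4-WT libraries. It reached 5.25 and 3.44 FPKM in TLR4-K730R LPS replicates 1 and 3 and 7.54 FPKM in TLR4-K810R LPS replicate 2, beside on values of 26.0 to 41.0 FPKM over the LPS-treated libraries. The adjusted p over the 3 genotypes was 0.449 by limma.

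Retention was lower after LPS at the level of whole libraries. The median share over the 476 introns was 5.08% ± 0.972 in TLR4-WT mock and 3.34% ± 0.195 after LPS (SD, n = 3 each, as for the mutants). TLR4-K730R had 5.78% ± 0.741 and 4.23% ± 0.722, and TLR4-K810R had 5.49% ± 0.240 and 2.88% ± 0.864. Pooled, the 9 LPS-treated libraries had 3.48% ± 0.825 and the 9 mock-treated ones 5.45% ± 0.693. The difference of -1.97 percentage points gave p = 0.00025 in a 2-sided exact permutation test within genotype, the smallest p its 8000 permutations can give. The groups overlapped, since TLR4-WT mock replicate 3 had 4.0% and TLR4-K730R LPS replicate 2 had 4.85%. Summed on FPKM over summed on and off FPKM fell likewise from 8.06% ± 1.23 to 5.10% ± 0.791 (p = 0.00025, same exact test). Without the 5 introns of Fn1, whose retained form changed most in FPKM, that difference was -2.39 points (p = 0.00025, same exact test). The sum also held Fth1, ferritin heavy chain, whose spliced form averaged 10154 FPKM in mock-treated and 21438 FPKM in LPS-treated libraries at a share of 2.37 and 2.11%. Without Fth1 the difference was -3.03 points, and without both genes -2.48 (p = 0.00025 each, same exact test). Leaving out these genes was added after seeing the data.

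**Figure D2:**
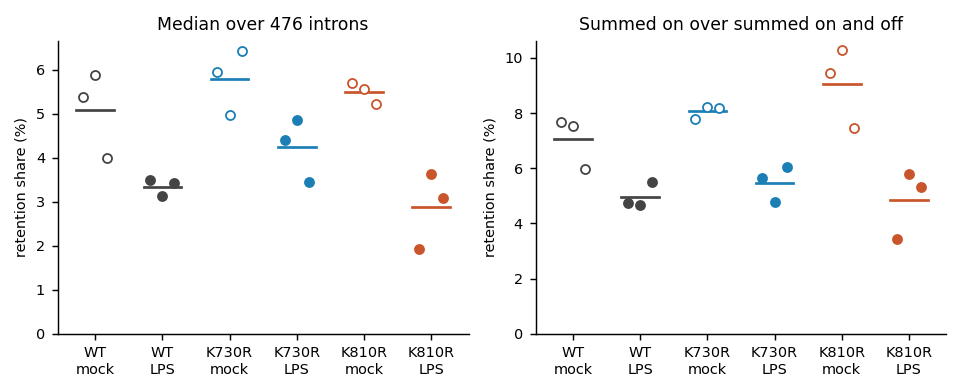
Retention share (percent) of each library by genotype and treatment, as the median over 476 introns (left) and as summed on over summed on and off FPKM (right). Points are libraries (open mock-treated, filled LPS-treated) and bars are group means of 3. Each genotype's LPS mean lies below its mock mean.

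The lower shares were spread over many introns. After LPS, 307 of 476 introns had a lower mean share and 169 a higher one, with a median change of -1.07 percentage points. No intron had 9 LPS-treated shares apart from its 9 mock-treated shares. No retained intron row in the files held a value of 0, so an on or off value of 0 FPKM is a form with no row in that library, set to 0. The number of tested introns with no row for the on form was 70.7 ± 12.8 per mock-treated and 90.3 ± 20.5 per LPS-treated library (SD, n = 9 each). The part of these zeros, and of the fewer rows given above, in the lower shares was not tested.

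No difference in median share between mutant and TLR4-WT libraries passed a test. The difference from TLR4-WT was 0.701 points for TLR4-K730R and 0.411 for TLR4-K810R in mock-treated cells (exact permutation p = 0.4 and 0.7). It was 0.888 and -0.464 points after LPS (exact permutation p = 0.2 and 0.6). The pooled share in mock-treated cells was 1.0 points higher in TLR4-K730R than in TLR4-WT, with libraries that did not overlap (7.78 to 8.22% against 5.99 to 7.67%, exact permutation p = 0.1), and 2.0 points higher in TLR4-K810R (exact permutation p = 0.3). With 3 libraries against 3, the smallest p possible is 0.1, so no such test could pass 0.05.

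Single introns were tested with limma on the log2 ratio of on to off, each with 1 FPKM added, and called at a Benjamini-Hochberg adjusted p below 0.01. LPS against mock gave 3 calls among 476 introns (0.63%) in TLR4-WT. TLR4-K730R had 9 (1.89%), TLR4-K810R also 9 (1.89%), and all had a lower ratio after LPS. The counts at an unadjusted p below 0.05 were 56, 66 and 57. Averaging the LPS effect over the 3 genotypes, a comparison added after seeing the data, called 27 introns (5.67%) of 21 genes, 23 lower and 4 higher. The spliced form is the denominator of this ratio, and by its change the calls fell as follows. Of the 50 introns with a spliced form at least 2 times higher after LPS, 21 were called, all lower, and 3 with 0.1 FPKM added. Of the 387 within 2 times, 3 were called. Of the 39 with a spliced form at least 2 times lower, 3 were called, all higher.

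The calls within 1 genotype were few and often rested on single libraries. In TLR4-WT they were Ifi35, Zbp1 and an intron listed under C2, and the calls of Ifi35 and Zbp1 were each lost without any 1 of the 6 libraries (adjusted p = 0.0136 to 0.0625 by limma). TLR4-K730R added Chtop, both Irf7 introns, Clec4e, Uba7 and Sp110. There, Sp110 was lost without any 1 library (adjusted p = 0.0163 to 0.0357), Ifi35, Zbp1 and Uba7 each without any 1 of 5 libraries (0.0106 to 0.0323), and Chtop without mock replicate 2 or any LPS replicate (0.0124 to 0.015). TLR4-K810R had Ifi35, Zbp1, the intron listed under C2, Irf7, Shisa5, and 2 introns each of Clec4e and Phf11d. Over the 3 genotypes, Irf7, Zbp1, Chtop, Shisa5, Ifi35 and Uba7 were called with any 1 library left out, and Jtb was not without TLR4-K730R LPS replicate 1 (adjusted p = 0.0105 by limma).

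Many of these calls rest on on values near the added 1 FPKM. The mean on form was at most 1 FPKM in both treatments for 12 of the 27 introns, and there the log ratio, by its construction, follows the spliced form even if the share does not move. With 0.1 FPKM added in place of 1, 5 of 476 introns (1.05%) were called: both Irf7 introns and those of Chtop, Shisa5 and Zbp1. On the share itself, limma called none (adjusted p below 0.01). The mean share moved against the ratio in 7 of the 27 called introns, those of Matk and Cxcl16, both of Tnfaip3, both of Phf11d and 1 of Clec4e. With 0.1 FPKM added, the ratio itself changed sign in Cxcl16, Nfkbie and Matk. On and off values are therefore given beside the share for the introns described in most detail. The introns nearest the threshold were in Cxcl16 and Nfkbie (adjusted p = 0.0092 and 0.0095 by limma, inside) and in Rab3gap2 and Clec4e (0.0102 and 0.0103, outside).

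**Figure D3:**
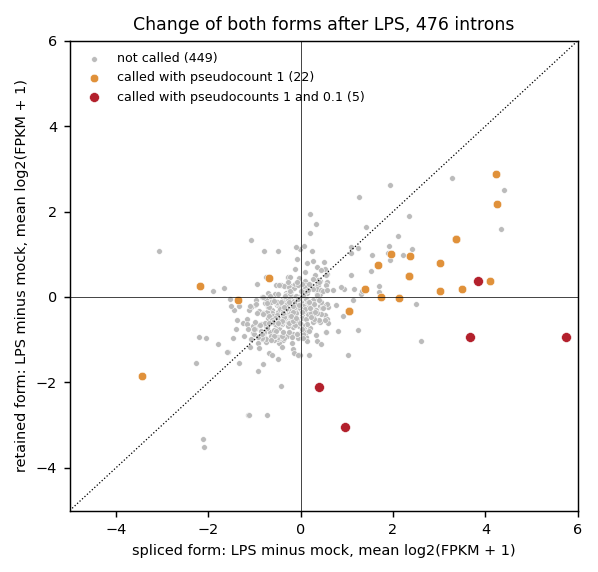
Change after LPS (mean of 9 LPS-treated minus mean of 9 mock-treated libraries, log2(FPKM + 1)) of the spliced form (horizontal) and the retained form (vertical), 1 point per intron. On the dotted line both forms change alike. Most of the 22 introns called only with 1 FPKM added (orange) lie right of the centre, where the spliced form rose, and the 5 called with either value (red) lie below the line.

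Irf7 encodes the transcription factor that amplifies type I interferon, and its intron 5 stood out in mock-treated TLR4-K730R. The on form there was 4.83, 6.25 and 1.61 FPKM and the off form 0.303, 0.219 and 13.0 FPKM, which gave shares of 94.1, 96.6 and 11.04%. TLR4-WT mock shares were 2.65, 0.000352 and 0%, with an off form of 73.6, 57.9 and 70.4 FPKM. TLR4-K810R mock shares were at most 0.121%, with an off form of 6.79 to 8.12 FPKM. So 2 of the 3 TLR4-K730R libraries kept the intron in nearly all listed copies and the third in a minority. After LPS the on form had no row in any of the 9 libraries, while the off form reached 377 to 869 FPKM. The intron met the filter on the on form only through TLR4-K730R mock, and tests of that group are not independent of this selection. The log ratio differed by 6.33 ± 0.919 (SE) between TLR4-K730R and TLR4-WT mock-treated cells (adjusted p = 0.00238 by limma), the 1 call of 476 (0.21%) in that comparison, where 27 had an unadjusted p below 0.05. The call was lost, with an adjusted p of 0.0116 to 0.0229 by limma, without TLR4-WT mock replicate 2 or 3 or TLR4-K730R mock replicate 1 or 2.

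The whole-gene level of Irf7 differed between genotypes before LPS. Its gene FPKM was 139.7, 74.6 and 116.7 in TLR4-WT mock, 6.86, 8.82 and 28.7 in TLR4-K730R mock and 18.3, 14.3 and 13.0 in TLR4-K810R mock. The high shares thus came from a few FPKM of transcript. LPS lowered the ratio by 10.2 on the log2 scale in TLR4-K730R (adjusted p = 5.2e-06 by limma) and by 6.22 in TLR4-K810R (adjusted p = 0.00048). In TLR4-K810R mock the on form was at most 0.00981 FPKM and the share at most 0.121%, so that change came from the spliced form. The TLR4-WT change of -3.54 missed the threshold (adjusted p = 0.0588). The difference between the TLR4-K730R and TLR4-WT responses was -6.71 ± 1.30 (SE) and missed it too (adjusted p = 0.0539 by limma). A listed intron of 69 nt that shares its 5′ end and its on values had shares of 91.5, 98.5 and 11.6% in TLR4-K730R mock.

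Zbp1, a sensor of Z-form nucleic acids that triggers cell death, had a lower mean share after LPS in every genotype. Intron 4 (1365 nt, chr2:173210734-173212098) was kept at 22.5, 15.2 and 20.5% in TLR4-WT mock and at 0.988, 1.23 and 1.96% after LPS. In TLR4-K730R the shares were 35.2, 10.8 and 0% before and 1.34, 5.04 and 2.98% after LPS. In TLR4-K810R they were 99.9, 29.6 and 19.1% before and 1.58, 7.74 and 5.79% after. Mock and LPS shares did not overlap in TLR4-WT or TLR4-K810R, and overlapped in TLR4-K730R through the library at 0. In TLR4-WT the on form was 1.02 to 1.41 FPKM before and 0.461 to 1.11 FPKM after LPS. The off form was 3.95 to 6.58 FPKM before and 46.1 to 55.6 FPKM after LPS. Over all 3 genotypes the mean on form was higher after LPS, at 0.756 FPKM in mock-treated and 1.35 FPKM in LPS-treated libraries. The log ratio was called in each genotype (-3.48, -3.41 and -3.48, SE 0.612, adjusted p = 0.00972, 0.00355 and 0.00278 by limma, each lost without single libraries). On and off cover only part of this gene, whose FPKM in TLR4-WT was 20.8 to 26.7 before and 238.0 to 242.8 after LPS. In mock-treated TLR4-K730R and TLR4-K810R the gene FPKM was 6.09 to 7.25 and 6.09 to 6.99. The shares there rest on a few FPKM of transcript.

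Chtop, an mRNA export factor, was called in TLR4-K730R and over the 3 genotypes. Its intron 2 (1283 nt, chr3:90506262-90507544), kept by an annotated coding transcript, had shares of 17.8, 21.6 and 11.3% in TLR4-WT mock and 5.03, 0.0125 and 12.6% after LPS. TLR4-K730R went from 26.0, 50.2 and 21.3% to below 0.005% in all 3 libraries. TLR4-K810R went from 20, 16.02 and 12.1% to 0.00435, 12.2 and 0.00258%. In 7 of the 9 LPS-treated libraries the shares lay below the lowest mock value of 11.3%. The spliced form was 11.1 to 34.5 FPKM in mock-treated and 20.7 to 43.0 FPKM in LPS-treated libraries. In TLR4-K730R it was 20.3, 11.1 and 23.8 FPKM before and 31.0, 35.1 and 35.8 FPKM after LPS, with no overlap. The change over the 3 genotypes was -2.52 ± 0.395 (SE, adjusted p = 0.000355 by limma).

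Shisa5, an endoplasmic reticulum protein linked to p53-dependent cell death, had its intron 4 listed as retained in 5 of the 18 libraries, all mock-treated mutants. The on form was 61.8 and 63.0 FPKM in TLR4-K730R mock replicates 2 and 3, and 37.4, 21.6 and 52.2 FPKM in the TLR4-K810R mock libraries. These gave shares of 32.5, 31.9, 20.3, 15.7 and 37.2%. It had no row, and was set to 0, in TLR4-K730R mock replicate 1, in all 6 TLR4-WT libraries and in all LPS-treated libraries. Such on values lay far above the added 1 FPKM. The intron met the filter on the on form only through those 5 mock-treated mutant libraries. Tests that set them against other groups are therefore not independent of that selection. LPS lowered the ratio by 6.65 on the log2 scale in TLR4-K810R (SE 1.19, adjusted p = 0.00278 by limma), a call lost without TLR4-K810R mock replicate 1 or 3 or any LPS replicate (0.0123 to 0.024). The difference between TLR4-K810R and TLR4-WT mock-treated cells was 6.33 with an adjusted p of 0.0413, above the threshold. The TLR4-K730R difference of 4.76 was not called either (adjusted p = 0.141 by limma). Without TLR4-K730R mock replicate 1 it was 6.95 and called (adjusted p = 1.1e-07 by limma), but that omission takes out the 1 library of its group at 0 and is no support for the difference.

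**Figure D4:**
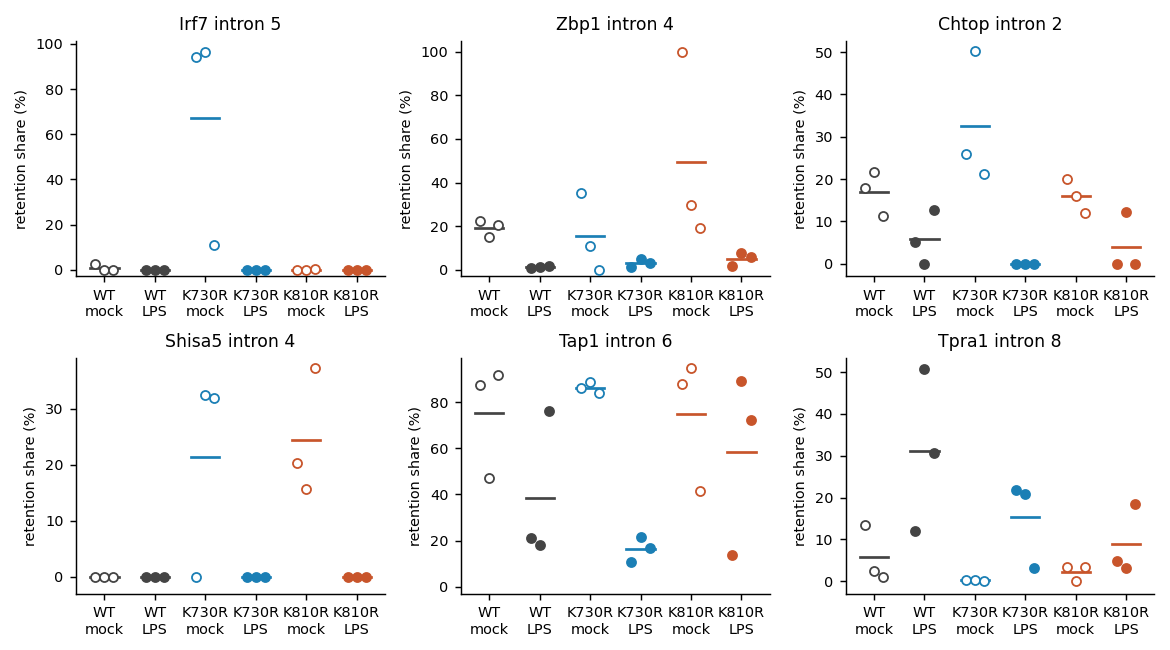
Retention share (percent) of 6 introns in each library, by genotype and treatment (open mock-treated, filled LPS-treated, bars are means of 3). Irf7 is high in 2 TLR4-K730R mock libraries, Shisa5 is above 0 only in mutant mock libraries, and Tap1 and Tpra1 overlap between treatments.

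Tpra1 went the other way. The share of its intron 8 was 1.01 to 13.6% in TLR4-WT mock and 11.9 to 50.9% after LPS, and 0.102 to 0.365% against 3.25 to 21.9% in TLR4-K730R. The treatments overlapped in TLR4-WT. They also overlapped in TLR4-K810R, at 3.46, 0.0418 and 3.29% before and 4.79, 3.05 and 18.5% after LPS. There both forms were lower after LPS, with a mean on form of 0.71 against 0.39 FPKM and a mean off form of 26.1 against 4.50 FPKM. The change over the 3 genotypes was 2.44 ± 0.365 (SE, adjusted p = 0.00028 by limma, 0.011 with 0.1 FPKM added), with a gene FPKM of 33.4 to 57.7 in mock-treated and 7.08 to 14.8 in LPS-treated libraries. The other 3 rises were in Jtb, in Polr2e, an RNA polymerase subunit, and in Matk, a tyrosine kinase. Matk shows the effect of the added FPKM: its ratio rose by 1.57 while its mean share went from 8.29 to 2.69%.

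In several strongly induced genes both forms were higher after LPS. Ifi35, an interferon-induced protein, had an on form of 0.404, 0.548 and 0.379 FPKM in TLR4-WT mock and 2.07, 0.953 and 1.43 FPKM after LPS, and its off form was 21.2 to 23.9 FPKM before and 128 to 134 FPKM after. Its ratio was called in each genotype, and its share was 0.327 to 7.73% over all 18 libraries. Clec4e, the receptor Mincle that binds mycobacterial cord factor, had an intron 3 on form of 1.39 to 3.57 FPKM in TLR4-WT mock and 27.6 to 40.5 FPKM after LPS. Its shares were 2.36 to 4.27% and 2.83 to 5.04%. In TLR4-K810R, where this intron was called, they were 6.25, 0.444 and 6.16% before and 1.96, 0.469 and 0.996% after LPS.

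Other called genes of the response had shares that were low or moved in either direction. Tnfaip3, the NF-κB inhibitor A20, had no on form in any mock-treated library and a share of at most 1.98% after LPS. Phf11d had a mean share of 0.771% before and 3.85% after LPS although its ratio fell. Uba7, the activating enzyme for ISG15, went from a mean share of 13.5 to 1.32%, with 76.3% in TLR4-K730R mock replicate 3, and Sp110, a nuclear body protein, from 10.3 to 2.62%. An intron of 74 nt on the minus strand of chr17, listed under C2 but with no single gene at its position, had shares of at most 2.54% in every library.

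**Figure D5:**
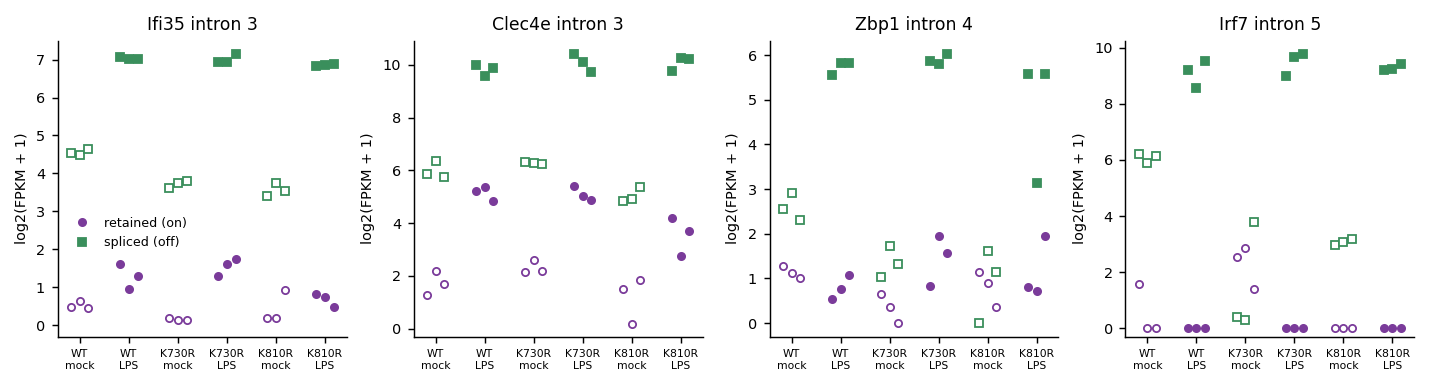
Retained (purple circles) and spliced (green squares) form of 4 introns in each library, as log2(FPKM + 1), open for mock-treated and filled for LPS-treated. The spliced form rises after LPS in all 4, and the retained form is higher after LPS in Ifi35 and Clec4e on average and at 0 after LPS in Irf7.

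Between genotypes, calls other than Irf7 were absent. No intron of 476 (0%) was called by limma for TLR4-K810R against TLR4-WT in mock-treated cells, where 33 had an unadjusted p below 0.05. None (0%) was called in LPS-treated cells for TLR4-K730R or TLR4-K810R (22 each at an unadjusted p below 0.05). None (0%) was called for the difference in LPS response (22 and 25). Among LPS-treated libraries alone, which admits genes that mock-treated cells hardly express, 298 introns were tested, 21 of them outside the 476, and none (0%) was called for either mutant (10 and 14 at an unadjusted p below 0.05).

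Among the introns with the lowest p for a genotype difference after LPS, 3 were chosen after their values were seen. Ifi206, an interferon-induced DNA-binding protein, was kept at 100% in all 3 LPS-treated TLR4-WT libraries. TLR4-K730R shares were 90.3, 87.8 and 88.2%, TLR4-K810R shares 84.6, 85.4 and 88.7%, and the off form was 7.38 to 19.9 FPKM over both mutants. Among the LPS-treated libraries, the off form met the filter only through these mutant libraries, so tests of them are not independent of that selection. Neither mutant overlapped TLR4-WT (adjusted p = 0.0255 and 0.0125 by limma among the LPS-treated libraries), and without the filter on low values both were called (0.000145 and 4.6e-05). Casp1, the inflammasome protease, was at 100% in TLR4-WT and at 57.4, 90.3 and 86.9% in TLR4-K810R after LPS (adjusted p = 0.012 by limma over all 18 libraries, 0.168 among the LPS-treated libraries). Tufm, a mitochondrial elongation factor, was at 28.2, 49.8 and 20.2% in LPS-treated TLR4-WT and at 0 in all 6 TLR4-K810R libraries (adjusted p = 0.012 and 0.0619 by limma in the same fits). With on plus off of at least 5 FPKM required in all libraries, Casp1 and Tufm were both called (adjusted p = 0.0084 each by limma). The off form of Casp1 met the filter only through LPS-treated mutant libraries, so its tests are not independent of that selection. In mock-treated libraries the intestinal and the mesothelium and fibroblast marker sums of both mutants lay above those of TLR4-WT. After LPS the intestinal sum of TLR4-K730R lay above that of TLR4-WT, while that of TLR4-K810R overlapped it. The LPS-treated mesothelium and fibroblast sums of both mutants lay inside the TLR4-WT range, and their lung sums overlapped those of TLR4-WT. The part of these other cells in the values was not tested.

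Gene lists for the pathway and for RNA processing were set against the 5.67% called over all tested introns. Genes were assigned by intron position where the listed gene was a neighbour, as for Uba7 (listed under Ip6k1), Nfkbie (Slc35b2), Rsrp1 (Syf2) and Ddx39b (Mir8094). Of 65 interferon-stimulated genes, 8 had tested introns, 10 in all, and 6 of those were called with a lower ratio. The mean share was lower in 7 of the 10 introns and higher in 3, which included both called Phf11d introns, and 3 were called with 0.1 FPKM added. The median change of these 10 was 3.36 for the spliced and 0.92 for the retained form (log2(FPKM + 1)), against -0.15 and -0.26 over all 476. Of 62 LPS-induced inflammatory genes, 6 had 10 tested introns, and 6 were called with a lower ratio, in Cxcl16, Tnfaip3, Clec4e and Nfkbie. The mean share was lower in 5 of these 10 introns and higher in 5, it was higher in 4 of the 6 called, and none was called with 0.1 FPKM added. Of 34 genes of the TLR4 complex and MyD88 pathway, Irf3 and Myd88 had 1 tested intron each, and neither was called. The Irf3 shares ran from 0.016 to 92.0% after LPS.

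Introns of splicing factors had no calls. Of 33 SR proteins and related factors, Rsrp1 and Arglu1 had 7 tested introns, with a median share of 58.3% in mock-treated and 51.5% in LPS-treated libraries and 0 called. Of these 7, 6 were events of Rsrp1 alone, and the share of single events there ran from 0 to 99.8% between mock-treated libraries. The kinases of SR proteins Clk1 and Clk3 had 3 introns with a median mock-treated share of 14.9% and 0 called, and the hnRNPs and other RNA-binding regulators had 13 introns with one of 8.32% and 0 called. None of 34 paired introns of core spliceosome proteins passed the filter on low values. Of 35 genes known for detained introns, 9 had 13 tested introns, and the 2 called were those of Irf7. The nonsense-mediated decay and exon junction list (1 intron), ribosomal proteins (15), chaperones (1) and lysosomal genes (9) had 0 called.

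The most retained introns in mock-treated TLR4-WT, by the highest mean share among introns with on plus off of at least 10 FPKM, included those in Ddx39b, Rpl7a, Xbp1, Nfe2l1, Casp1, Smox, Fn1, Bsg and Rsrp1. Each of these had over 90% in TLR4-WT mock on average, against the 1 spliced form it was paired with. Not all were stable between libraries. The share ran from 0 to 100% over the mock-treated libraries for Ddx39b and Rpl7a, and Nfe2l1 spanned 98.4 points in TLR4-K810R mock. Paired with another listed spliced form, the same retained form had a mean share of 34.3% for Rpl7a and 40.0% for Ddx39b over the mock-treated libraries. Fn1, which encodes fibronectin, had in its intron of 254 nt an abundant retained form of 310 to 418 FPKM in TLR4-WT mock and 88.3 to 118 FPKM after LPS, with shares of 98.7 to 99.8% over all 18 libraries. Other Fn1 introns were kept less. That of 626 nt had mean shares of 10.3, 13.3 and 27.2% in mock-treated TLR4-WT, TLR4-K730R and TLR4-K810R. After LPS they were 67.7, 53.3 and 52.5% (adjusted p = 0.106 over the 3 genotypes by limma). The 3 LPS-treated TLR4-K810R libraries spanned 95.3 points. Bsg, the surface glycoprotein basigin, was at 95.5 to 99.9%. Smox, spermine oxidase, was at 99.6 to 100% in mock-treated libraries and at 58.2 to 100% after LPS, without passing the test (adjusted p = 0.557 by limma).

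Shares varied widely between replicates. The median range among 3 libraries was 6.37 to 10.4 percentage points depending on the group. In 102 of 476 introns (21.4%) it exceeded 50 points in at least 1 group, and in 36 it exceeded 80. Intron 5 of Tnfaip2, a gene induced by TNF, was at 0.994 to 3.26% in all 6 TLR4-WT libraries, at 100% in the 3 TLR4-K730R mock libraries and at 2.12 to 2.79% after LPS. In TLR4-K810R it was at 25.9, 1.70 and 100% before and at 2.25, 97.7 and 1.11% after LPS. The TLR4-K730R mock difference from TLR4-WT had an adjusted p of 0.0736 by limma. Against the other spliced form listed from the same 5′ end, an intron of 169 nt, the same retained form had shares of 36.4, 36.4 and 18.2% in TLR4-K730R mock, so the 100% holds for 1 splice end only. Tap1, the peptide transporter for MHC class I, ranged from 41.3 to 94.9% in mock-treated and from 10.9 to 89.1% in LPS-treated libraries (adjusted p = 0.0366 over the 3 genotypes). Within TLR4-K730R its treatments did not overlap, at 83.9 to 88.5% and 10.9 to 21.4%. Golga2, a Golgi matrix protein, was at 87.1, 4.61 and 85.5% in the 3 TLR4-WT mock libraries.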

How the data were processed

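RNA-seq was made from peritoneal macrophages, 3 libraries for each of 3 genotypes with and without LPS. The authors deposited 1 splicing table per library with the FPKM of each event form. The aligner, the assembler and the event caller are not given in the sources used here. The genome build named in the labels is a human one, while the coordinates matched mouse GRCm38: 2911 of 3799 junction pairs were in GENCODE M21. FPKM per form is an estimate summed over transcripts, and forms without expression have no row and were set to 0. Depth is unknown. Rows of retained-intron types numbered 177254, and 674 without a gene number were left out. Intron ends of events with approximate outer boundaries were taken as listed.

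Tested introns had on plus off of at least 1 FPKM in all 18 libraries and each form at 1 FPKM in at least 3. An intron could thus pass through the libraries of 1 group alone. limma 3.58.1 (R 4.3.3, empirical Bayes with an intensity trend) was fitted to log2((on + 1)/(off + 1)) with 6 group means, and p-values were adjusted over 476 introns per comparison. The scripts were tested on simulated data. Single values per library were compared with exact permutation tests (Python 3.11.15). Alternatives were a pseudocount of 0.1 FPKM, the share itself, no filter, 5 FPKM, centring, a replicate block, a threshold of 0.05 and leaving out each library. The comparison over the 3 genotypes and the pooled share without Fn1 or Fth1 were added after seeing the data. Members, lists and tests were chosen with earlier results of these data known. Named introns were the 5 largest non-overlapping calls per direction and comparison, the 10 highest shares (1 gene among them is not reported here) and called list members, and others are said to be chosen after their values were seen. These include Tap1, Tnfaip2, Golga2, Tpra1, Sms and Polr2e.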

Additional observations from a re-analysis of the deposited data

How the results depend on the processing

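The count of called introns moved with the scale of the test. In the order TLR4-WT, TLR4-K730R, TLR4-K810R and over the 3 genotypes, LPS against mock gave 3, 9, 9 and 27 calls as reported, 0, 2, 0 and 5 with 0.1 FPKM added, 0 each on the share in percent, and 260, 268, 171 and 672 of 3799 introns without the filter. Requiring 5 FPKM (329 introns) gave 5 in TLR4-K730R and 17 over the genotypes. A threshold of 0.05 gave 23 in TLR4-K730R, 15 in TLR4-K810R and 46 over the genotypes. Leaving out 1 library gave 1 to 2, 2 to 6, 6 to 9 and 22 to 31 calls. In TLR4-WT every library except LPS replicate 1 lowered the count to 1. In TLR4-K730R mock replicate 2, LPS replicate 1 and LPS replicate 3 each lowered it to 2, mock replicate 3 to 4 and LPS replicate 2 to 5.

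For the genotype comparisons, TLR4-K730R against TLR4-WT in mock-treated cells went from 1 call to 0 on the share and without the filter, to 2 at 0.05 and to 0 to 2 with 1 library left out. TLR4-K810R mock gave 1 at 0.05. After LPS, TLR4-K730R gave 1 without the filter, and TLR4-K810R gave 2 without the filter, with 5 FPKM and at 0.05. Among the LPS-treated libraries alone, 0.1 FPKM gave 1 call per mutant. The difference in LPS response of TLR4-K730R gave 0 to 1 with 1 library left out: 1 without TLR4-WT LPS replicate 1 (Myo9b), without TLR4-K730R mock replicate 1 (Shisa5) or without TLR4-K730R mock replicate 3 (Irf7).

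Replicate numbers are shared between groups but did not pair libraries: deviations of same-numbered libraries had a median correlation of 0.00055 over 45 pairs, from -0.223 to 0.249, against 0.0036 over 90 pairs with different numbers. With the replicate block, TLR4-WT LPS calls went from 3 to 1 and TLR4-K810R against TLR4-WT after LPS from 0 to 1 (Tufm), and counts elsewhere stayed within 1.5 times.

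The median share difference between LPS and mock stayed between -2.15 and -1.78 points with 1 library left out. The genotype differences ranged over 0.16 to 1.11 and -0.131 to 0.809 points in mock-treated cells, the lowest without TLR4-WT mock replicate 3, and over 0.578 to 1.28 and -0.836 to 0.0102 after LPS, the highest without TLR4-K810R LPS replicate 1. Among the named calls recomputed under every alternative, direction changed 4 times: Ifi35 (0.578 points) and the chr17 intron listed under C2 (0.0306 points) in TLR4-K730R on the share, and Matk over the genotypes with 0.1 FPKM (-0.55) and on the share (-5.60 points). Of 26 named calls, 19 were lost with 0.1 FPKM besides the reversed Matk, all 26 on the share (3 of them reversed) and 2 with the block (Ifi35 and Zbp1 in TLR4-WT, adjusted p = 0.0298 each by limma). The cause of these changes was not tested beyond the effect of the added FPKM on low on values. Depth could not be assessed from FPKM.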

Other observations

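Some retained introns outside the comparisons above differed in mean share between treatments without passing the test, and were chosen after their values were seen. Intron 11 of Dnmt3a, a DNA methyltransferase, was kept at 25.3, 23.6 and 24.5% in TLR4-WT mock libraries and at 17.4, 0 and 0% after LPS. It was at 39.6, 31.5 and 39.6% in TLR4-K810R mock and at 8.78, 0 and 17.9% after LPS, and at 0, 40.8 and 42.0% in TLR4-K730R mock and 0 in its 3 LPS-treated libraries. The adjusted p over the 3 genotypes was 0.181 by limma. The AT to AC intron of Sms, the only one with those ends among the 410 introns with sequence, was at 27.4, 9.84 and 0% in TLR4-WT mock, at 43.6, 39.7 and 28.3% in TLR4-K730R mock and at 34.5, 45.1 and 58.9% in TLR4-K810R mock. After LPS it was at 0 in 7 of 9 libraries, with 37.4% in 1 TLR4-K730R library and 14.9% in 1 TLR4-K810R library (adjusted p = 0.12 by limma). The mean gene FPKM in TLR4-WT went from 85.4 to 12.8 for Dnmt3a and from 8.26 to 3.86 for Sms. Both genes were lower after LPS in the mutants too. An intron of Gas5, a host gene of small nucleolar RNAs, had a mean share of 10.6% in mock-treated and 35.9% in LPS-treated libraries. Its adjusted p was 0.0184 by limma. The mean on form was 0.999 FPKM before and 1.25 FPKM after LPS, and the mean off form 8.47 and 2.09 FPKM.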
